A study of Mus musculus with 8 samples.

Results

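The genes described here are 40 imprinted genes of the mouse, taken as a list of names and grouped into 17 imprinted clusters, out of 49980 genes with a position in the RefSeq annotation of GRCm38. All 40 names matched that annotation, 35 as protein-coding genes and 5 as long noncoding RNAs (H19, Airn, Kcnq1ot1, Meg3 and Peg13). Each gene was set against the summits of V5-ZGLP1 ChIP-seq peaks, which are the single bases where the signal of a peak is highest. ZGLP1 is a nuclear protein with GATA-like zinc fingers, and the series title ties it to the female germ cell fate.

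Cells of the C57BL/6 x DBA2 background overexpressed a V5-tagged Zglp1 under doxycycline (Dox), and chromatin was pulled down with an anti-V5 antibody. Primordial germ cell-like cells (PGCLCs), grown in culture from embryonic stem cells (ESCs), received Dox only or Dox with retinoic acid (RA) from culture day 3 and were collected on day 7 or 8, sorted for SC and mCherry fluorescence. ESCs received Dox and RA for 24 h and were sorted for mCherry. Of 8 libraries, 5 were ChIP (4 of PGCLCs and 1 of ESCs, each from an equal count of sorted cells) and 3 were input, with 1 library in each group. All ChIP groups carried the transgene and Dox, so no group here lacks ZGLP1 overexpression. The deposited result is 1 list of 32927 summits on mm10 with no height and no library name. No value can therefore be given per sample, no condition can be compared, the depth is unknown, and the marker genes of the 2 cell types could not be checked.

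An imprinted gene is transcribed mainly from the copy inherited from one parent. The choice is set by DNA methylation laid down in the egg or the sperm at a differentially methylated region (DMR), which lies most often at a promoter methylated in the egg and, at a few loci, between genes methylated in the sperm. Primordial germ cells erase these marks, and the oocyte and the sperm lineage then write their own. Many imprinted genes regulate growth of the fetus and placenta, and several clusters hold a long noncoding RNA that silences neighbouring genes on the same chromosome. The summit list cannot tell one parental copy from the other and holds no methylation.

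Of the 40 imprinted genes, 33 (82.5%, exact 95% binomial interval 67.2 to 92.7) had a summit no more than 10 kb from a boundary, meaning either end of the annotated gene. Among all annotated genes the share was 45.6%, and among all protein-coding genes it was 66.6%. Within 1 kb the count was 21 of 40 (52.5%, interval 36.1 to 68.5), beside 29.8% of all annotated genes and 52.9% of protein-coding genes. Within 50 kb it was 39 of 40 (97.5%, interval 86.8 to 99.9), beside 65.3% and 78.0%. Read against protein-coding genes, the imprinted genes had a summit directly at a boundary about as often, and their share was higher at 10 kb and 50 kb. The 35 coding members alone gave 51.4% at 1 kb, and 82.9% at 10 kb with an interval of 66.4 to 93.4 that still holds the protein-coding share. At 50 kb they gave 97.1%, with an interval of 85.1 to 99.9 that lies above it. Of the 5 noncoding members, 4 had a summit within 10 kb, beside 40.3% of all long noncoding RNA genes. These intervals cover counting error only and are too narrow, since neighbouring members share summits.

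**Figure D1:**
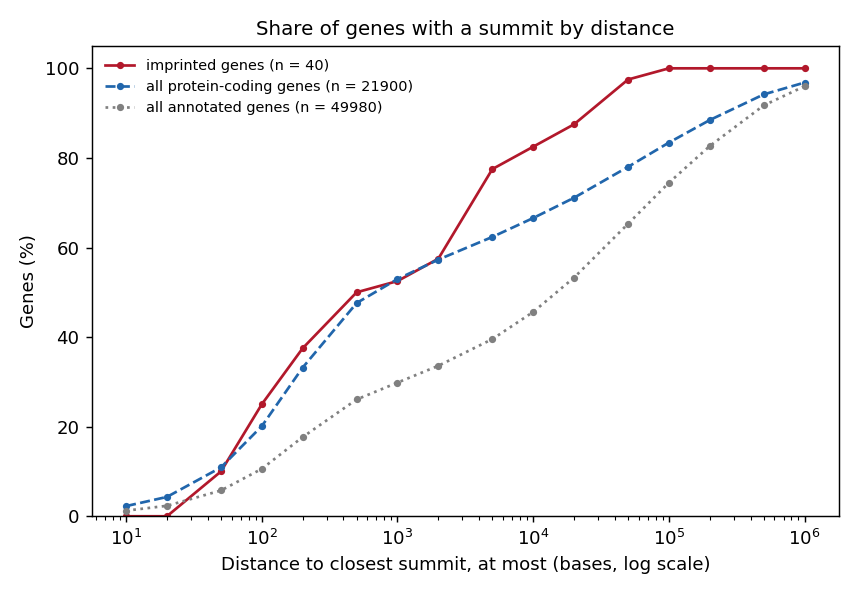
Share of genes (vertical axis, %) whose closest summit lies within a given distance of a boundary (horizontal axis, bases, log scale), for the 40 imprinted genes, 21900 protein-coding genes and 49980 annotated genes. The red line runs close to the protein-coding line up to 2000 bases (57.5% and 57.3%) and lies above it from 5000 bases (77.5% and 62.4%).

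The median distance from an imprinted gene to its closest summit was 568 bases, beside 657.5 bases over protein-coding genes and 15086 over all annotated genes. The distances were spread widely around this median. At 20 members the closest summit lay within 500 bases of a boundary, and at the 7 members with none within 10 kb it lay between 11484 bases (Grb10) and 51212 bases (Dlk1). The other 5 of these 7 were Kcnq1 (17610), Snrpn (21790), Rtl1 (21882), H19 (42128) and Slc22a3 (49460). In all, 61 distinct summits lay within 10 kb of a member. Of these, 11 were within reach of more than 1 member and 13 lay closer to a gene outside the list, such as Blcap beside Nnat, Mas1 beside Airn, Cct4 beside Commd1 and Fignl1 beside Ddc.

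**Figure D2:**
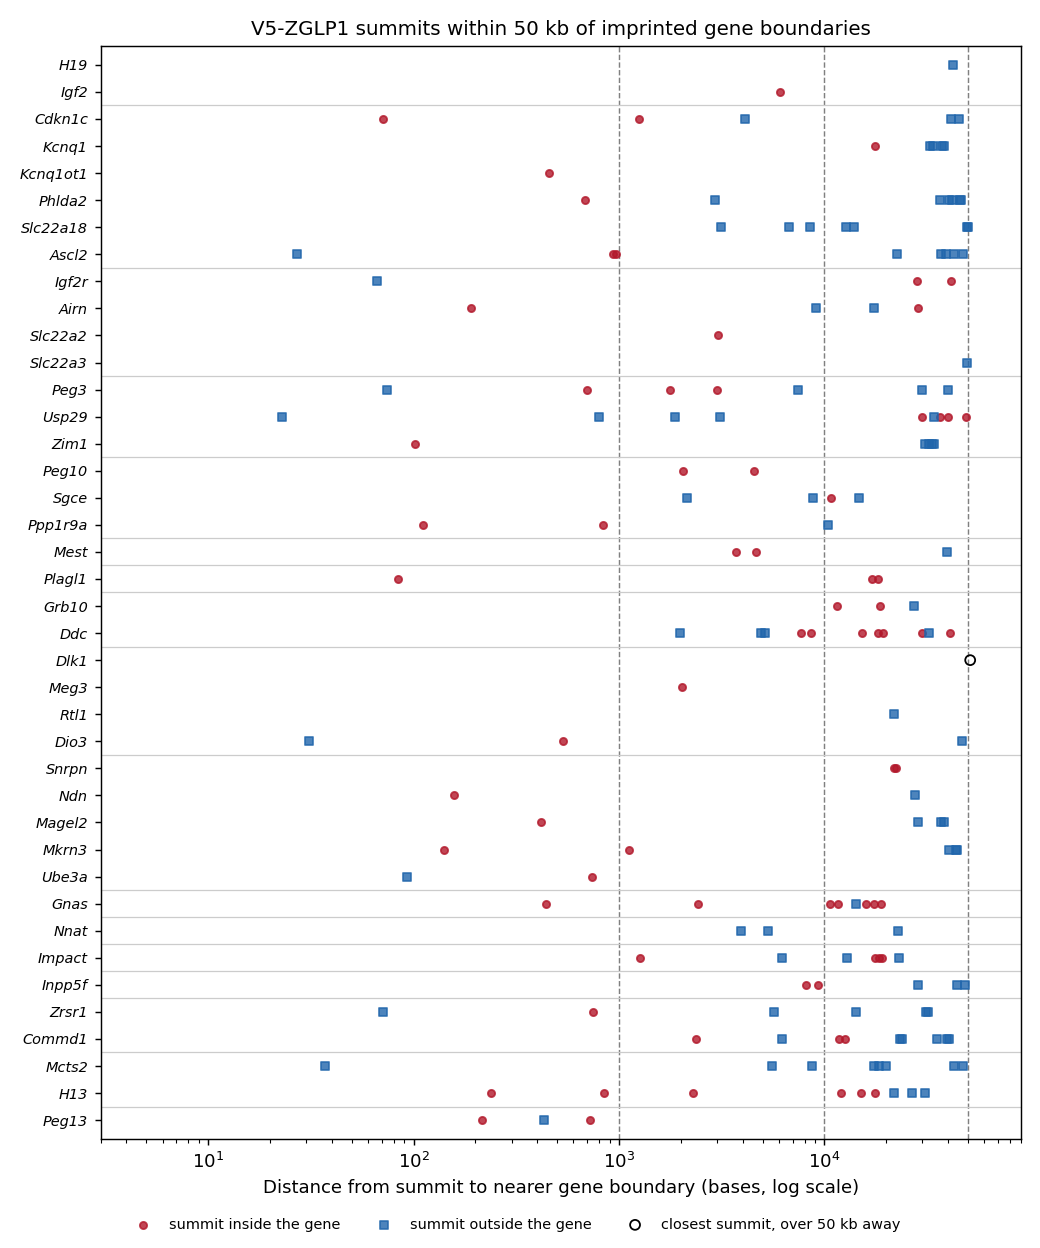
Each row is an imprinted gene, with rows grouped by cluster between grey lines, and each point is a summit within 50 kb at its distance from the nearer boundary (bases, log scale; dashed lines at 1, 10 and 50 kb). Red circles are summits inside the gene and blue squares are outside it. Dlk1 is the 1 gene with no summit in that range (open circle, 51212 bases).

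The members also differed by gene length. Of 12 members of at most 5 kb, 10 had a summit within 1 kb (83.3%, interval 51.6 to 97.9), beside 30.9% of 5047 protein-coding genes of that length. These short coding genes lay far from summits as a class, with a median distance of 33651 bases beside 657.5 over all protein-coding genes. The 2 short members without one were H19 and Nnat. Of 13 members of 5 to 50 kb, 4 had one (30.8%, beside 58.4% of coding genes), and of 15 longer members 7 did (46.7%, beside 62.4%). All of these member shares are counts of few genes, and the short members include the noncoding H19 and Peg13. Several of the longer members had a summit at a start inside the gene. Starts inside genes were counted here neither for members nor for coding genes.

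Described first are 14 paternally expressed members whose promoters are textbook sites of egg-set methylation: Airn, Kcnq1ot1, Peg3, Usp29, Peg10, Sgce, Mest, Plagl1, Snrpn, Nnat, Impact, Zrsr1, Mcts2 and Peg13. Grb10, Gnas and Inpp5f also hold egg-methylated regions and are described with the genes that have several promoters, so the 14 are not the whole of that class and are not compared with the rest.

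Airn, the noncoding RNA that silences Igf2r and its neighbours on the paternal chromosome, had a summit 191 bases downstream of its start (chromosome 17, 12741311). That summit at 12741502 lies inside Igf2r, whose gene body Airn overlaps. Kcnq1ot1, the noncoding RNA of the Kcnq1 cluster, had one 455 bases downstream of its start, at 143296092 on chromosome 7, inside Kcnq1. Both silencing RNAs thus had a summit just inside their first 500 bases, and their next summits were at 9047 bases or farther from a boundary.

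Peg3, a zinc finger gene, and Usp29, a ubiquitin protease gene, start back to back. They shared a summit at 6730536 on chromosome 7, which lies between their boundaries, 74 bases from that of Peg3 and 23 bases from that of Usp29. Another 3 summits stood in the first 3 kb of Peg3, at 698, 1770 and 2991 bases inside its upper boundary. Plagl1, which encodes a zinc finger factor of fetal growth, had a summit 84 bases downstream of its start (chromosome 10, 13090832), shared with the noncoding Hymai. Zrsr1, a splicing factor gene within an intron of Commd1, had summits 71 bases upstream of its start and 744 bases inside. Mcts2, a retrogene within H13, had one 37 bases upstream of its start. Peg13, a noncoding RNA gene within Trappc9, had 3 within 1 kb of its upper boundary, at 215 and 723 bases inside and 429 outside.

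Mest and Snrpn had no summit within 1 kb of their outer boundaries but had one within 1 kb of an inner start. Mest, which encodes a protein of the alpha/beta hydrolase fold, has listed starts at 30733506, 30738050 and 30738053 on chromosome 6. The first was 3728 bases from the nearest summit, and the other 2 were 112 and 109 bases from one. Snrpn, which encodes a spliceosome protein, has starts at 60450177, 60140225, 60047978 and 60005199 on chromosome 7, read from right to left. Their closest summits were 445382, 135430, 43183 and 404 bases away. The summits at 60004285 and 60004795 near the innermost start were the only 2 in the 467683 bases of the gene.

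The remaining members of this set had summits farther off. Peg10, a gene derived from a retrotransposon, and Sgce, which encodes epsilon-sarcoglycan, face each other at adjoining boundaries, and the closest summit lay 2046 bases inside Peg10. Impact, a regulator of the translation kinase GCN2, had a summit 1271 bases inside its lower boundary (chromosome 18, 12954690 to 12992950) and 3 more between 17522 and 19738 bases. Nnat, which encodes the membrane protein neuronatin and lies within an intron of Blcap, had none inside it. Its closest summit was 6386 bases from its start and 103 bases from the boundary of Blcap.

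Counting every start listed in RefSeq, 23 of the 32 members with such an entry had a summit within 1 kb of one (71.9%, interval 53.3 to 86.3), beside 42.5% of 27025 genes and 55.7% of 17492 protein-coding genes with an entry. The coding members gave 21 of 29 (72.4%, interval 52.8 to 87.3), an interval that holds the protein-coding share. A gene counts here if any of its listed starts has a summit. The 32 members have 48 listed starts and the 27025 genes have 32851, so the members had more starts per gene. No listed start was at hand for H19, Cdkn1c, Kcnq1, Peg10, Sgce, Rtl1, Impact and Peg13. Of 29 member starts with a summit within 1 kb, 19 had it downstream (65.5%) and 10 upstream, with a median of 112 bases downstream. Over all 13459 such starts 52.8% were downstream. The member starts are not independent, since neighbouring starts of Mest and of Gnas count the same summit downstream, and Peg3 and Usp29 the same summit upstream.

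In 10 members the summit fell within the 300-base promoter window, which runs from 250 bases before a start to 50 after it. These are 10 of 48 member starts (20.8%), beside 18.8% of all listed starts, and 10 of the 32 members with a listed start, beside 21.1% of all genes and 28.4% of protein-coding genes with one. The 8 with the summit closest to the start are printed to show the sequence on which a summit stood, 5′ to 3′ in the direction of the gene, from RefSeq on GRCm38.p6. Capitals mark CpG, the dinucleotide that carries DNA methylation.
Zim1, chr7:6696383-6696682, minus strand: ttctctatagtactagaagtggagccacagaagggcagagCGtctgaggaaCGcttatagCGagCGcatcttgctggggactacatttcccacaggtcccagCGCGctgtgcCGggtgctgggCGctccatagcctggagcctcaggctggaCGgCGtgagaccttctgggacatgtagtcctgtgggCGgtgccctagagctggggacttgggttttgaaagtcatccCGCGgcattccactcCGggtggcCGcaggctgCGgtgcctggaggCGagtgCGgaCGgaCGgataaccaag
Ppp1r9a, chr6:4902725-4903024, plus strand: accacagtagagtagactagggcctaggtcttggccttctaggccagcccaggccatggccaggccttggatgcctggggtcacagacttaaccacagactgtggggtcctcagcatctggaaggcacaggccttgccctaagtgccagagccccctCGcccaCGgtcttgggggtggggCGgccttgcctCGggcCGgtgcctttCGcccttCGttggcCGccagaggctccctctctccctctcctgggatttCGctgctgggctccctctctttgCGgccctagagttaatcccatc
Ascl2, chr7:142969215-142969514, minus strand: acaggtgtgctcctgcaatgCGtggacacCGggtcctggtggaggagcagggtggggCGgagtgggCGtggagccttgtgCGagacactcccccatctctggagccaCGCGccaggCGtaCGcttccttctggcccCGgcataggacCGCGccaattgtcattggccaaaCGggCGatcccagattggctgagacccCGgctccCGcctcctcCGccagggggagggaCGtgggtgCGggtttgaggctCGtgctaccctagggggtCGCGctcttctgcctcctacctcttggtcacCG
Dio3, chr12:110278980-110279279, plus strand: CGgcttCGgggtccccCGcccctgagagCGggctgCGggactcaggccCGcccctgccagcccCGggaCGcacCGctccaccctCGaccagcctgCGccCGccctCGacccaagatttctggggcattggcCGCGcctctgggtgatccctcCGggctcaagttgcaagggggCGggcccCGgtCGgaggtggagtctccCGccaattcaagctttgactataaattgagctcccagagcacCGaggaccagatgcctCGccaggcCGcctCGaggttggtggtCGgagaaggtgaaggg
Mcts2, chr2:152686898-152687197, plus strand: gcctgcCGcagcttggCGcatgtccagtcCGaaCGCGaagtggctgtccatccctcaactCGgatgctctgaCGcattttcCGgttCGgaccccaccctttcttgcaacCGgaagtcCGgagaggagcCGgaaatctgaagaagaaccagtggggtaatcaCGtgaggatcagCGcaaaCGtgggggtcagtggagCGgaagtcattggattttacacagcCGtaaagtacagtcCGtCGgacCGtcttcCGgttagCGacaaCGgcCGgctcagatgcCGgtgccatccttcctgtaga
Usp29, chr7:6730333-6730632, plus strand: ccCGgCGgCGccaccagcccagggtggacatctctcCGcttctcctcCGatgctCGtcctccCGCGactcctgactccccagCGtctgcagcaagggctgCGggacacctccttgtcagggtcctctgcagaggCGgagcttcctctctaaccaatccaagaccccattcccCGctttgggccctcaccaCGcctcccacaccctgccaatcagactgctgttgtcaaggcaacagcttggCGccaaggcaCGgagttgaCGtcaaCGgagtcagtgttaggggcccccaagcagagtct
Igf2r, chr17:12769657-12769956, minus strand: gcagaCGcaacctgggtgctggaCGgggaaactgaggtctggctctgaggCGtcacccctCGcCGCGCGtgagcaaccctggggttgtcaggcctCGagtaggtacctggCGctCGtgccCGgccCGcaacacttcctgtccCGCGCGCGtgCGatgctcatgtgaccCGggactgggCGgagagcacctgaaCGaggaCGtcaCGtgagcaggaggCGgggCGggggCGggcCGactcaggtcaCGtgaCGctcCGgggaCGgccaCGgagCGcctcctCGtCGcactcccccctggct
Zrsr1, chr11:22971755-22972054, plus strand: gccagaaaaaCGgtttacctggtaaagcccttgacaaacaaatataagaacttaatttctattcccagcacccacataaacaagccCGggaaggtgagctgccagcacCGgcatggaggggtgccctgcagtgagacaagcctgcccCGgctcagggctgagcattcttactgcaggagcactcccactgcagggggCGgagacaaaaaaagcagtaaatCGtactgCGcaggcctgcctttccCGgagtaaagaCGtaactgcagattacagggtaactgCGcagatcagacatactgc

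Counted from 1 at the 5′ end of each window, the summit stood at base 245 in Zim1, 259 in Ppp1r9a, 224 in Ascl2, 220 in Dio3, 214 in Mcts2, 204 in Usp29, 185 in Igf2r and 180 in Zrsr1. The windows differed in CpG. Igf2r had 34, Mcts2 and Dio3 25 each, Ascl2 23, Zim1 20, Usp29 17, and Zrsr1 and Ppp1r9a 10 each. The Ppp1r9a gene, which encodes the actin-binding neurabin, has a listed start farther in with 48 CpG in its window, 328 bases from the nearest summit. A further 2 members with a summit in the window, Ube3a at 93 bases and Peg3 at 117 bases from the start, are not printed.

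Summits at starts followed CpG content across the genome, and the imprinted genes did so too. CpG content was taken as the count of CpG over that expected from C and G in the window. Among all 32851 listed starts, 4.81% of those under 0.25 had a summit within 1 kb, 20.9% of those from 0.25 to 0.5, 70.2% of those from 0.5 to 0.75 and 90.7% of those at 0.75 or more. For starts of imprinted genes the counts in these classes were 1 of 9, 4 of 10, 12 of 15 and 12 of 14 (11.1%, 40.0%, 80.0% and 85.7%). In each class the interval of the imprinted genes held the genome share. With 9 to 15 starts per class these intervals are wide, and they count alternative starts of 1 gene as separate. Their median was 0.60 over 48 starts, beside 0.38 over all starts.

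**Figure D3:**
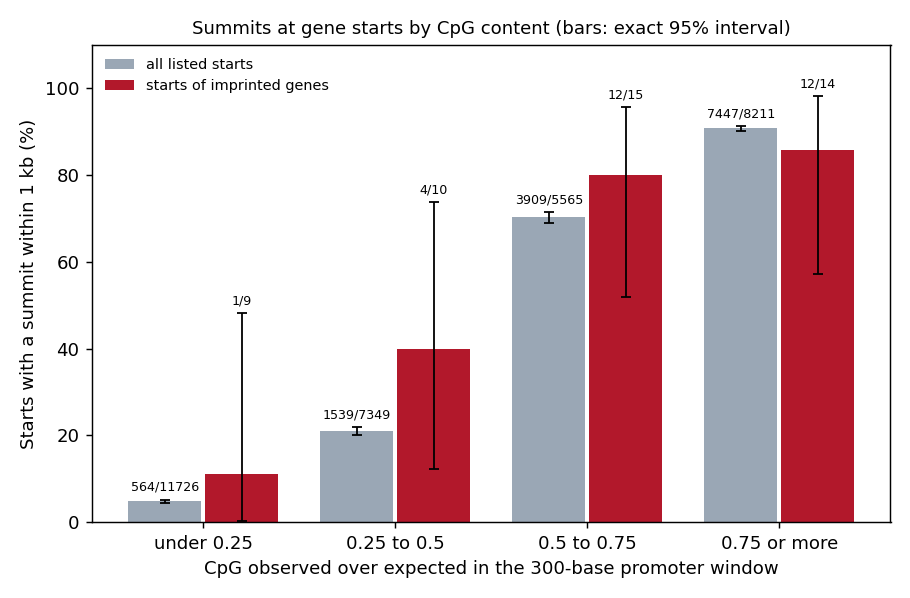
Share of listed starts with a summit within 1 kb (vertical axis, %) in 4 classes of CpG observed over expected (horizontal axis), for all starts (grey) and starts of imprinted genes (red), with counts above the bars. Error bars are exact 95% binomial intervals, and the share climbs with CpG content in both sets (4.81% to 90.7% and 11.1% to 85.7%).

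A few members departed from that order. Airn had a summit 191 bases from a start with 3 CpG (0.19), the single member start under 0.25 with a summit within 1 kb. At the other end, the outer start of Grb10 had 45 CpG (0.97) and its closest summit 11476 bases away, and a start of Igf2 with 24 CpG (0.90) had its closest at 1924 bases. Nnat, with 17 CpG (0.69), Inpp5f (15, 0.59) and a start of Meg3 (13, 0.60) were the 3 starts from 0.5 to 0.75 without one within 1 kb.

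ZGLP1 has GATA-like zinc fingers, so the letters GATA were searched in the promoter windows, on both strands like every motif below. They occurred in 43.8% of 48 member windows and 57.9% of all windows. In windows that hold a summit the shares were 2 of 10 for members and 38.8% of 6166 for all. Among the windows printed above only that of Zim1 had a match. Longer forms that contain GATA were rarer. The form AGATAA was present in 1 member window and in 11.2% of all windows. The form AGATAG was present in 3 member windows and in 8.95% of all. The form TGATAA was present in 1 member window and in 9.05% of all. The form TGATAG was present in 2 member windows and in 7.29% of all. Each of these forms was in 0 of the 10 member windows with a summit, and over all windows with a summit the shares were also low, at 4.02%, 4.83%, 2.64% and 3.45% in the same order. The letters TGCCGC, known from the methylated motif of the imprint-protecting factor ZFP57, were in 12 of 48 member windows (25.0%) and 11.6% of all, and in 2 of 10 (Zim1 and Mcts2) and 22.0% of windows with a summit. TGCCGC contains a CpG and GATA does not, and the median CpG content of member windows was higher (0.60 beside 0.38 over all). The shares of members and of all windows are therefore not of like windows, and none was matched by CpG content. Overlapping windows of Mest are counted separately among the 12. A match is a string of letters in a 300-base window and not a bound site.

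Some members with several promoters had summits along the gene. Gnas, which encodes the stimulatory G protein alpha subunit from several alternative starts (chromosome 2, 174284320 to 174346744), held 7 summits. The one at 174284763 was 443 bases downstream of the outermost start, that at 174327882 was 133 and 114 bases downstream of a pair of inner starts, and that at 174330759 was 753 bases downstream of the innermost. The summits at 174294967 and 174295999 stood near the boundary of the antisense gene Gnasas1. Commd1, a regulator of copper and NF-kB, had its closest outer summit at 2376 bases, but 2 listed starts within it lay 121 and 117 bases from a summit. The second of these starts shares its summit with Zrsr1. H13, which encodes signal peptide peptidase and contains Mcts2 as Commd1 contains Zrsr1, held 6 summits, 199 bases from its start at the closest, and 1 of them is that of Mcts2.

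Inpp5f, a phosphoinositide phosphatase gene, had no summit within 75 kb of its start (closest 75731 bases) and 2 near its far end, 9340 and 8127 bases inside. Grb10, an adaptor that restrains insulin and IGF receptor signalling, had 2 summits in 106930 bases. The first lay 11484 bases inside its upper boundary and 2027 bases from an inner start, and the second 18644 bases inside its lower boundary. Ddc, beside it, which encodes the decarboxylase of dopamine and serotonin synthesis, held 7 summits inside, the most of any member together with Gnas, none of them within 7 kb of a boundary. Its closest summit, 1979 bases outside, lay between Ddc and Fignl1.

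Among growth factors and their receptors, Igf2 and H19 were poor in summits. Igf2, the fetal growth factor (chromosome 7, 142650768 to 142666816), had 1 summit, at 142660728 inside it, 543 bases downstream of one of its 4 listed starts. H19, the noncoding RNA expressed from the other parental copy, was 42128 bases from the nearest, which stood 935 bases from Mrpl23. No summit stood in the 72.6 kb between H19 and Igf2, where the sperm-methylated control region of the pair is known to lie. Igf2r, the receptor that clears IGF2, had a summit 66 bases upstream of its start (chromosome 17, 12769706). The organic cation transporter genes of its cluster differed from it. Slc22a2 had 1 summit, 3029 bases inside its far end and 41271 bases from its start, and the start of Slc22a3 was 117756 bases from any.

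In the Kcnq1 cluster on chromosome 7, 3 small maternally expressed genes had a summit at a boundary or start. Ascl2, a placental basic helix-loop-helix factor, had 3 within 1 kb, one 27 bases upstream of its start and the others 931 and 965 bases inside its boundaries. Cdkn1c, the cell cycle inhibitor p57, had 2 inside, at 71 and 1247 bases from its upper boundary, and 1 outside at 4116. Phlda2, which limits placental growth, had 1 inside, 60 bases downstream of its listed start. Slc22a18, between them, had none inside, and its closest, at 3130 bases, is that of Phlda2. Kcnq1, a potassium channel gene of 320174 bases, held 2 summits, of which one is that of Kcnq1ot1, and was free of them over 171.6 kb. With 50 kb on either side this cluster held 19 summits, 29.9 per Mb, beside 12.6 per Mb over the annotated span of the autosomes and X. That span also holds long stretches without genes, so these densities are not of like windows.

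**Figure D4:**
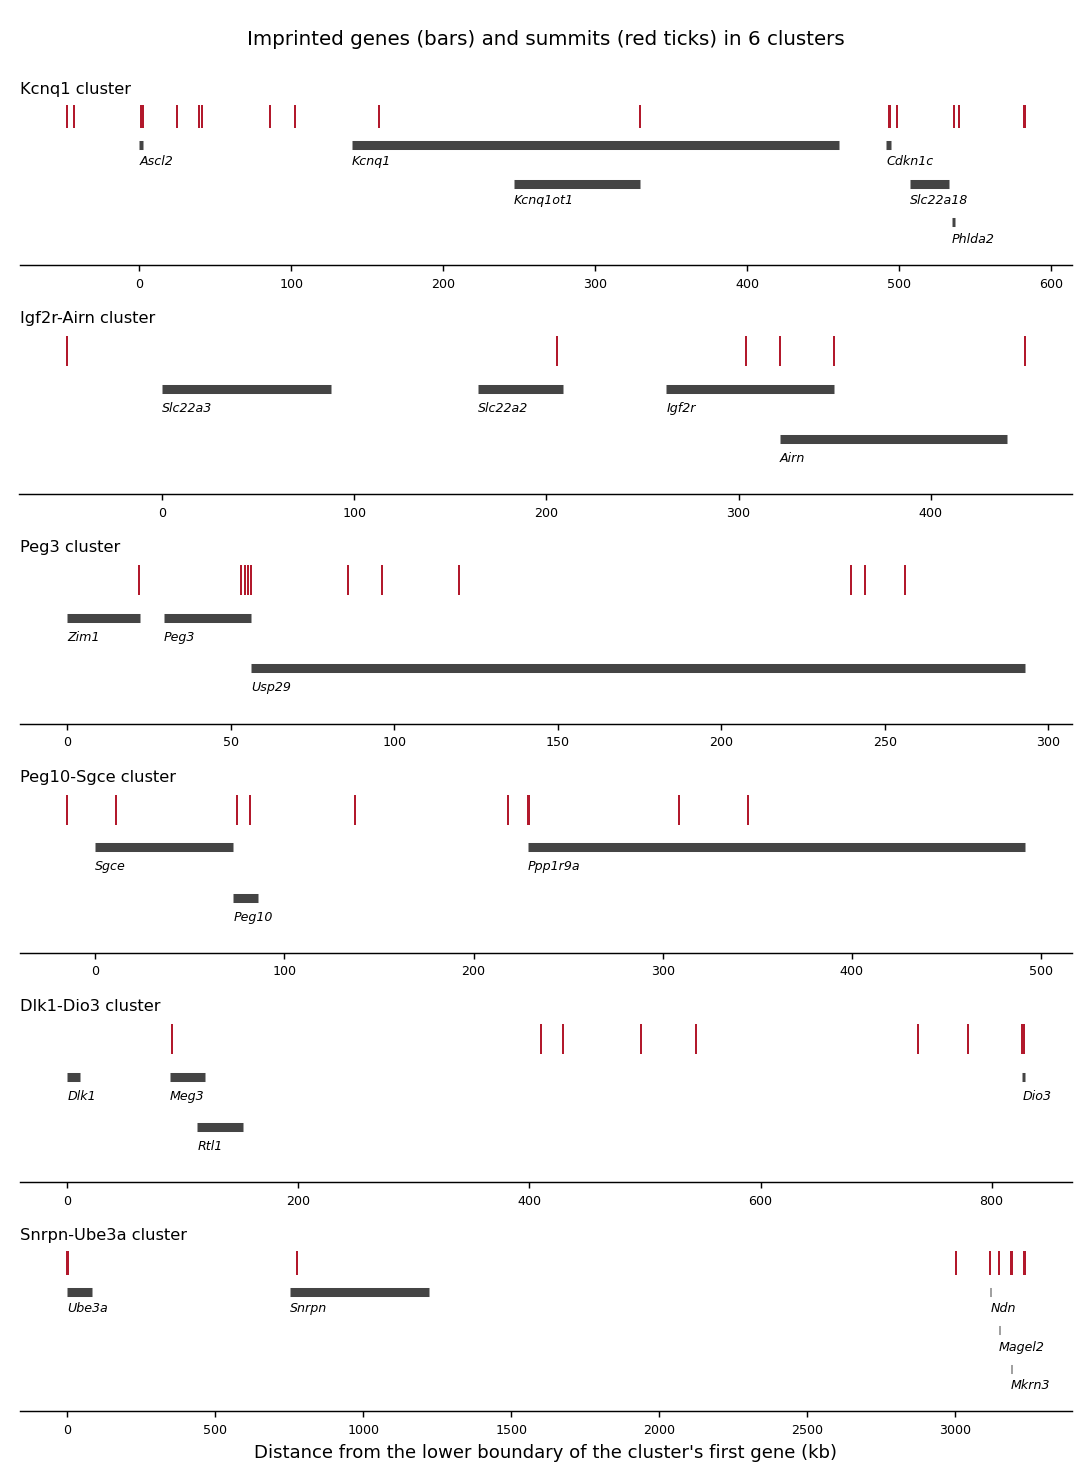
Maps of 6 imprinted clusters to scale, with imprinted genes as grey bars and summits within 50 kb of the cluster as red ticks, and distance in kb from the lower boundary of the first gene on each horizontal axis. Ticks gather at the facing starts of Peg3 and Usp29, and the Snrpn-Ube3a map is empty over 774.8 kb between the summit just inside Ube3a and the first in Snrpn.

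The 2 longest clusters had long empty stretches. In the Dlk1-Dio3 cluster on chromosome 12, Dlk1, a Notch-related ligand gene, had no summit within 50 kb. Meg3, a noncoding RNA expressed from the maternal copy, had 1, at 109543018, 2022 bases downstream of its outer start. No summit stood in the 77.7 kb between Dlk1 and Meg3, where the sperm-methylated control region of that cluster is known to lie. Rtl1, a retrotransposon-derived gene of the placenta, had none inside, and a run of 57 hairpins of the RefSeq miRNA table from Mir770 to Mir3072, spanning 184.3 kb, held none and came no closer to one than 20.7 kb. Mir1906-1, which lies before this run, was 1523 bases from the Meg3 summit. Dio3, which encodes the deiodinase that inactivates thyroid hormone, had 2 at the far end, 31 bases upstream of its start and 533 bases inside its other boundary.

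Gaps as long as those flanking the H19 to Igf2 and Dlk1 to Meg3 stretches, 127.3 and 141.7 kb from summit to summit, were not rare. Of 32892 neighbouring pairs of summits on the autosomes and X, 12.1% and 11.0% were at least as far apart, and the median was 16.4 kb. These shares count gaps and not bases, so a place picked along the genome falls in such a gap more often than they say. Rasgrf1, a further gene controlled by a sperm-methylated region and no member of the list, had its closest summit 27428 bases away. Zdbf2 and Gpr1, which also flank a sperm-methylated region and are not members, had theirs 119 and 1366 bases away. Of these genes, H19, Dlk1 and Rasgrf1 thus had no summit within 10 kb. Igf2 and Meg3 had 1 each, and Zdbf2 and Gpr1 had 2 each. Among all annotated genes 45.6% had a summit within 10 kb, and among protein-coding genes 66.6%.

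The Snrpn-Ube3a cluster on chromosome 7 spans 3191 kb, and with its flanks it held 12 summits, 3.65 per Mb, the fewest per Mb of the 17 clusters. Besides the 2 of Snrpn, they stood toward the ends of this span. Ube3a, the ubiquitin ligase gene expressed from the maternal copy in neurons, had 2, at 93 bases upstream of its start and 742 bases inside. The intronless genes Ndn, Magel2 and Mkrn3 had summits 158, 416 and 141 bases downstream of their starts. Ndn and Magel2 encode MAGE family proteins, and Mkrn3 encodes a ring finger protein linked to the timing of puberty. Between the boundaries of Ube3a and Snrpn no summit stood over 671.7 kb, and 1.74% of gaps between summits were at least as long as the one that spans it. That share counts gaps and not bases, so a place picked along the genome falls in so long a gap more often. Between Snrpn and Ndn 2 summits stood over 1898 kb. The treatment of reads with several matches is not known, so a stretch without summits is not shown to be unbound. Over all 17 clusters with their flanks there were 132 summits in 8.17 Mb, 16.2 per Mb, and 13 clusters exceeded the 12.6 per Mb of the whole span. The cluster windows are drawn around genes, while the whole span also holds long stretches without genes. Windows around other genes were not counted, so the count of 13 has no like background.

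By the parental copy that is usually expressed, 12 of 21 paternally expressed members (57.1%) and 8 of 15 maternally expressed members (53.3%) had a summit within 1 kb, both near the 52.9% of protein-coding genes. Within 10 kb the counts were 18 of 21 and 12 of 15 (85.7% and 80.0%, beside 66.6%). Their intervals at 1 kb, 34.0 to 78.2 and 26.6 to 78.7, overlap almost entirely. The other 4 members, classed here as depending on isoform or tissue, were Grb10, Ddc, Gnas and Inpp5f, of which Gnas had a summit within 1 kb. The split is not strict, since Ube3a, expressed from the maternal copy in neurons, was counted as maternally expressed.

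A second list of 50 genes reported as imprinted or lying beside imprinted genes gave 30 with a summit within 1 kb (60.0%) and 38 within 10 kb (76.0%), beside 29.8% and 45.6% of all annotated genes and 52.9% and 66.6% of protein-coding genes. Most of the list is protein-coding. It is not separate from the members, since the summits within 1 kb of Hymai, Blcap and Mas1 also lie within 10 kb of a member. Those closest to Snurf and Gnasas1 lie inside Snrpn and Gnas. The closest were Copg2 (10 bases), Phactr2 (13), Slc38a4 (35), Pon3 (47), Hymai (71, the summit of Plagl1) and Gatm (79). The 5 with none within 50 kb were Rian, Tfpi2, Mirg, Calcr and Dcn, of which Rian and Mirg are noncoding RNA genes of the Dlk1-Dio3 cluster. Of 24 genes that set, protect or erase imprints, 19 had a summit within 1 kb (79.2%, beside 52.9% of protein-coding genes) and 23 within 10 kb (95.8%, beside 66.6%). The closest were those of Kdm1b (2 bases), a histone demethylase needed for imprints in oocytes, Tdg (5), Uhrf1 (53), which brings DNMT1 to replicating DNA, Dppa3 (65), which protects imprints in the zygote, Tet2 (70) and Tet1 (90), which oxidise methylcytosine. The exception at 10 kb was Ctcfl, at 35135 bases. Zfp57, whose protein holds imprints in place, had its closest summit at 1602 bases, and Dnmt1, the maintenance methyltransferase gene, at 7293. No interval is given for either list, and CpG content at the starts of their genes was not compared with that of other genes. Across the genome, summits at starts followed CpG content.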

How the data were processed

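Anti-V5 ChIP and input libraries were sequenced, and the authors deposited 1 list of peak summits. Its values are positions in bases, with no score, height or library. Per the submitters' processing notes, the tools include MACS2 2.1.1.20160309 and HOMER 4.9.1, Bowtie 1.1.2, cutadapt 1.9.1 with Trim Galore 0.4.1, SAMtools 1.3 with Picard 2.1.0, and bedtools, on mm10. Their settings, the peak threshold, the libraries that gave the peaks and the treatment of reads with several matches are not given in the sources used here, and reads at repeats or gene copies can move a summit. Start and end are equal throughout, so a distance may be off by 1 base.

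Gene boundaries and listed starts came from RefSeq tables for GRCm38.p6, with 32851 starts of 27025 genes. Each distance is from a summit to a boundary or start. A gene was linked at 1, 10 or 50 kb. The members, the gene lists and the methylation and parental classes (from textbook knowledge) were chosen with earlier results of these data known, so counts are descriptions beside those over all genes, and no test was run. The rule for named genes took all members, the 6 closest of each further list, and genes closer to a member's summit than the member itself. Other genes named were chosen after their values were seen, including Ctcfl, Zfp57, Dnmt1, Rasgrf1, Zdbf2, Gpr1 and those without a summit within 50 kb. The subsets by gene length and the stretches between genes were also chosen then. Promoters were printed for up to 8 members with a summit in the window. Nespas was matched as Gnasas1. The planned set of alternatives varied distance, boundary, summits and members. The code for distances and counts was checked against a direct calculation on simulated positions, which were not used as a background. Work was done in Python 3.11.15 with SciPy 1.17.1, pandas 2.3.3, matplotlib 3.10.9 and numpy 2.4.6.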

Additional observations from a re-analysis of the deposited data

How the results depend on the processing

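Of 38 alternative values, 26 stayed within the 95% interval of the value reported (for summits per Mb, within 1.5 times it) and 12 moved beyond it. The cause was not tested beyond what each alternative changes by construction. With only summits over 1 kb from every protein-coding boundary (19008 summits), the shares of members linked at 1, 10 and 50 kb were 7.5%, 60.0% and 85.0%, beside 3.77%, 27.4% and 52.7% of all genes. By gene end alone, where a strand was given, they were 15.6% at 1 kb and 56.2% at 10 kb, beside 5.82% and 35.7%. Adding summits anywhere inside a gene gave 85.0% at 1 kb, beside 36.0% of all genes. Giving each summit to the closest gene alone left 65.0% at 10 kb and 70.0% at 50 kb, beside 33.4% and 36.7%. Counting clusters gave 100% at 10 kb and at 50 kb, the noncoding members gave 100% at 50 kb, and a distance of 100 kb gave 100%. In each of these settings that has a share over all genes, that of the members was higher. Of the members 35 of 40 are protein-coding, against 21900 of 49980 genes, and these settings were not set against protein-coding genes alone. In the main setting the coding members gave 51.4% at 1 kb, beside 52.9% of protein-coding genes. They gave 82.9% beside 66.6% at 10 kb and 97.1% beside 78.0% at 50 kb. Starts listed inside genes were an alternative chosen after seeing the data, and with them the shares were 62.5%, 87.5% and 97.5%, beside 31.7%, 45.9% and 65.3% of all genes and 56.9%, 67.1% and 78.1% of protein-coding genes. Members with a listed start have more of them per gene than all genes with one. No paired analysis was possible because summits are not assigned to libraries. Depth is unknown, so a missing summit may be a weak one.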
